A study of Mus musculus with 14 samples.

Results

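The transcription factors that drive or oppose the epithelial to mesenchymal transition (EMT) were examined at their promoters in clones of the 4T1 line, which was derived from a mammary carcinoma of the mouse. They were picked by gene name from the promoter table, with no measured value used, although earlier results of these data were known. The genes were Zeb1, Zeb2, Snai1, Snai2, Twist1, Twist2, Prrx1, Tcf4, Ovol1 and Ovol2. All 10 of them were present, among 20343 genes in all, and they had 12 of the 21965 distinct promoters, since Tcf4 and Ovol2 each had 2. The measure was DNA methylation by genome-wide bisulfite sequencing, given as a fraction from 0 (no methylated cytosine) to 1 (all methylated). Each clone was grown from a single sorted cell, and the labels name no genotype change and no treatment. Clones E and T were intravasating, that is, able to enter blood vessels when tested as part of a pool, while the non-intravasating clones were I, K, L and P. Each line stands for 1 clone of cultured cells, so that the comparison set 2 clones against 4 with 1 deposited value per clone. The labels list 14 libraries in 2 rounds, including 2 of the parental line, which was not analysed here. The read depth behind each value is unknown. A level between 0 and 1 can come from a part of the cells, of the alleles or of the cytosines in the promoter, and these cannot be told apart.

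EMT is the switch by which epithelial cells give up their junctions and gain motility, and it is studied in mammary tumours as a step on the way into vessels. The ZEB, SNAIL and TWIST proteins bind short DNA elements called E-boxes and repress epithelial genes such as the E-cadherin gene Cdh1. The microRNAs of the miR-200 family repress Zeb1 and Zeb2 and are repressed by them in turn. Prrx1 is a homeobox factor of embryonic mesenchyme, Tcf4 encodes an E protein that pairs with TWIST-type factors, and Ovol1 and Ovol2 are zinc finger repressors that hold cells in the epithelial state. Methylation of cytosines in CpG pairs near a start site commonly goes with a silent promoter, but no RNA was measured here.

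The upstream sequences of 4 of these genes are shown because they hold the contrast between CpG content and methylation described next. They are the 250 bases before the RefSeq start site on GRCm38.p6, written 5′ to 3′ along the gene, with each CpG in capitals. Twist1 lies at chr12:33957421-33957670 on the plus strand, Twist2 at chr1:91801211-91801460 on the plus strand, Snai1 at chr2:167537945-167538194 on the plus strand and Prrx1 at chr1:163313651-163313900 on the minus strand.
Twist1: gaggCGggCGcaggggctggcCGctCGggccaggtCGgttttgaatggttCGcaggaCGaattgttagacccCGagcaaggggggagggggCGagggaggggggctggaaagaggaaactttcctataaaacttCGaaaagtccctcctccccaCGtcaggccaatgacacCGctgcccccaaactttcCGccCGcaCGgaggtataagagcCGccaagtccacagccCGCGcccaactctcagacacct
Twist2: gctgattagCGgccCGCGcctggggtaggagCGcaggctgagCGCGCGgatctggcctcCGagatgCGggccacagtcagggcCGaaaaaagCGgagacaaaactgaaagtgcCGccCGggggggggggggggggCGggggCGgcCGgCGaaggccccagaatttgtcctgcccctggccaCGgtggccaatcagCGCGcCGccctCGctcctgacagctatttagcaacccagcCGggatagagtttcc
Snai1: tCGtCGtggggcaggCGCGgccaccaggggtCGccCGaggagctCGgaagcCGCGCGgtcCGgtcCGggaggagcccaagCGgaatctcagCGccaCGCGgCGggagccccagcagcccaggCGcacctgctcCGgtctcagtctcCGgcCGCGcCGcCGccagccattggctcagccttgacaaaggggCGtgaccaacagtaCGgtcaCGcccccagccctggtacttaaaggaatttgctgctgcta
Prrx1: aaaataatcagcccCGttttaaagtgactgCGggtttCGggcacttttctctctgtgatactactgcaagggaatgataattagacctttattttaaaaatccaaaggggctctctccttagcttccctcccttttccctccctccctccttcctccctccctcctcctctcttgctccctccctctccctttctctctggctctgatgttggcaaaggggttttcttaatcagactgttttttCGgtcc
These stretches held 18 CpG in Twist1, 23 in Twist2, 27 in Snai1 and 4 in Prrx1. Windows were found for 6 of the 10 genes, 9 windows in all, of which Zeb2 had 4. The sources used here do not give the boundaries of the deposited promoters, so these windows need not coincide with the regions measured.

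The paralogs Twist1 and Twist2, close relatives of the basic helix-loop-helix class, had similar CpG content and opposite methylation. Over the full windows of 300 bases (250 before and 50 after the start) Twist1 held 27 CpG and Twist2 held 25, against a median of 7 over 32851 windows. The Twist1 promoter was at 0.0284 in clone E, 0.0245 in T, 0.0177 in I, 0.0488 in K, 0.107 in L and 0.0363 in P. The Twist2 promoter was at 0.924 in clone E, 0.927 in T, 0.929 in I, 0.919 in K, 0.876 in L and 0.945 in P. Twist1 was therefore nearly free of methylation in 5 clones and slightly raised in clone L, whereas Twist2 was almost fully methylated in all 6. The difference, Twist2 minus Twist1, was 0.876 ± 0.0546 (SD, n = 6) and lay between 0.769 and 0.911 in single clones.

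Among all genes with a single window and a single promoter, 11848 in number, the median level was 0.481 with 0 to 4 CpG, 0.633 with 5 to 9, and lower in each class above that. The 2606 genes with 20 to 29 CpG had a median level of 0.129, with quartiles of 0.0525 and 0.297, and 9.13% of them were at 0.8 or more. Twist2 stood above 98.2% of this class and Twist1 above 21.4%. Ovol2, with 25 CpG, stood above 73.9% of the same class by its higher promoter. Snai1, with 34 CpG, was at 0.104 ± 0.0335 (SD, n = 6), close to the median of 0.0962 among the 1826 genes with 30 CpG or more. Prrx1, with 6 CpG, belonged to a class of 1528 genes with 5 to 9 CpG, whose median was 0.633, and stood above 91.4% of it. Zeb2 had 3 windows with 8 or 9 CpG and 1 with 19, and its level of 0.921 exceeded those of 98.8% and 98.7% of the matching classes. The E-box sequences CACCTG and CAGGTG, which are each other's reverse complement, were searched on both strands and occurred in 1 of the 9 windows, that of Snai1, against 20.2% of all windows. The 9 windows are not separate promoters, since 4 belong to Zeb2, with overlap among them. By gene it was 1 of 6.

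**Figure D1:**
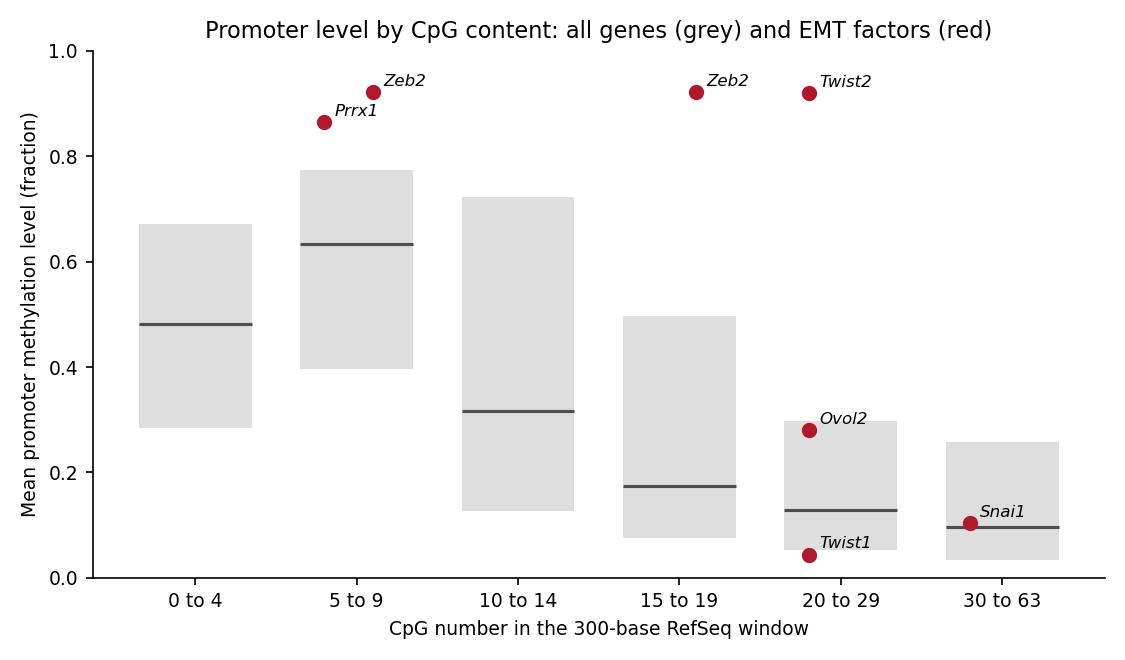
Mean promoter methylation level over 6 clones (fraction, vertical axis) by the number of CpG in the RefSeq window (horizontal axis). Grey boxes run from the lower to the upper quartile of all genes with 1 window and 1 promoter, dark lines are medians, and red points are EMT factors, with Zeb2 drawn in both of its classes and Ovol2 at its higher promoter. Twist2, Zeb2 and Prrx1 lie above the boxes of their classes, whereas Ovol2 and Snai1 lie inside theirs and Twist1 below its box.

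The 12 promoters fell into a highly methylated set, an intermediate promoter and a low set. The highest was Zeb1, a repressor of epithelial genes on chromosome 18, at 0.946 ± 0.0136 (SD, n = 6), and only 15 of all promoters had a higher mean. Its levels were 0.932 in clone E, 0.935 in T, 0.964 in I, 0.951 in K, 0.936 in L and 0.957 in P. Zeb2, its paralog on chromosome 2, was at 0.923 in clone E, 0.898 in T, 0.913 in I, 0.930 in K, 0.914 in L and 0.9504 in P. The 1 measured promoter of each ZEB gene was thus highly methylated in all 6 clones. Zeb1 was the higher of the pair in each clone, by 0.0244 ± 0.0170 (SD, n = 6). Prrx1, on chromosome 1, was at 0.851 in clone E, 0.862 in T, 0.860 in I, 0.883 in K, 0.837 in L and 0.891 in P. Zeb1, Zeb2, Twist2 and Prrx1 made up the 4 promoters at 0.8 or more, a class that held 14.5% of all promoters.

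Snai2, the SNAIL paralog on chromosome 16, was intermediate and differed most between clones. Its promoter was at 0.715 in clone E, 0.677 in T, 0.591 in I, 0.745 in K, 0.557 in L and 0.693 in P. Clones I and L were low and the other 4 high, so that the split did not follow the intravasating label. The range over clones of 0.188 was larger than that of 87.4% of all promoters, and the median range among promoters between 0.6 and 0.8 was 0.131. Snai1, on chromosome 2, was at 0.0823 in clone E, 0.0852 in T, 0.110 in I, 0.0795 in K, 0.0992 in L and 0.168 in P. Clone P stood above the other 5 clones at Snai1 by 0.0585. Snai2 exceeded Snai1 by 0.559 ± 0.0840 (SD, n = 6).

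The OVOL genes, which oppose EMT, were in the low set, but only Ovol1 had a mean under 0.2. The means of both Ovol2 promoters lay between 0.2 and 0.4. Ovol1, on chromosome 19, was at 0.0933 in clone E, 0.0726 in T, 0.0920 in I, 0.0807 in K, 0.0632 in L and 0.0691 in P. The higher Ovol2 promoter was at 0.303 in clone E, 0.245 in T, 0.310 in I, 0.297 in K, 0.303 in L and 0.223 in P. The lower Ovol2 promoter was at 0.273 in clone E, 0.277 in T, 0.2995 in I, 0.276 in K, 0.232 in L and 0.262 in P. The names higher and lower refer to the mean only, since the means of the Ovol2 promoters differed by 0.0102 and their ranges overlapped. Both Ovol2 promoters lay above Ovol1 in all 6 clones.

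The promoters of Tcf4, on chromosome 18, differed from each other. One was nearly free of methylation, at 0.0246 in clone E, 0.0127 in T, 0.00676 in I, 0.0106 in K, 0.0107 in L and 0.0324 in P. The other was at 0.142 in clone E, 0.147 in T, 0.222 in I, 0.176 in K, 0.222 in L and 0.259 in P. At this higher Tcf4 promoter both intravasating clones lay below the other 4. The difference between the Tcf4 promoters was 0.179 ± 0.0460 (SD, n = 6) and had the same sign in all 6 clones.

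In the order of means, Zeb1, Zeb2, Twist2, Prrx1, Snai2, the higher and lower Ovol2, the higher Tcf4, Snai1, Ovol1, Twist1 and the lower Tcf4 promoters followed each other. The ranges over clones did not overlap at 2 steps, from Prrx1 to Snai2 and from Snai2 to the higher Ovol2 promoter. At the other 9 steps they overlapped, although Zeb1 and Zeb2, Twist2 and Prrx1, the lower Ovol2 and higher Tcf4, the higher Tcf4 and Snai1, and Twist1 and the lower Tcf4 kept their order in each of the 6 clones.

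**Figure D2:**
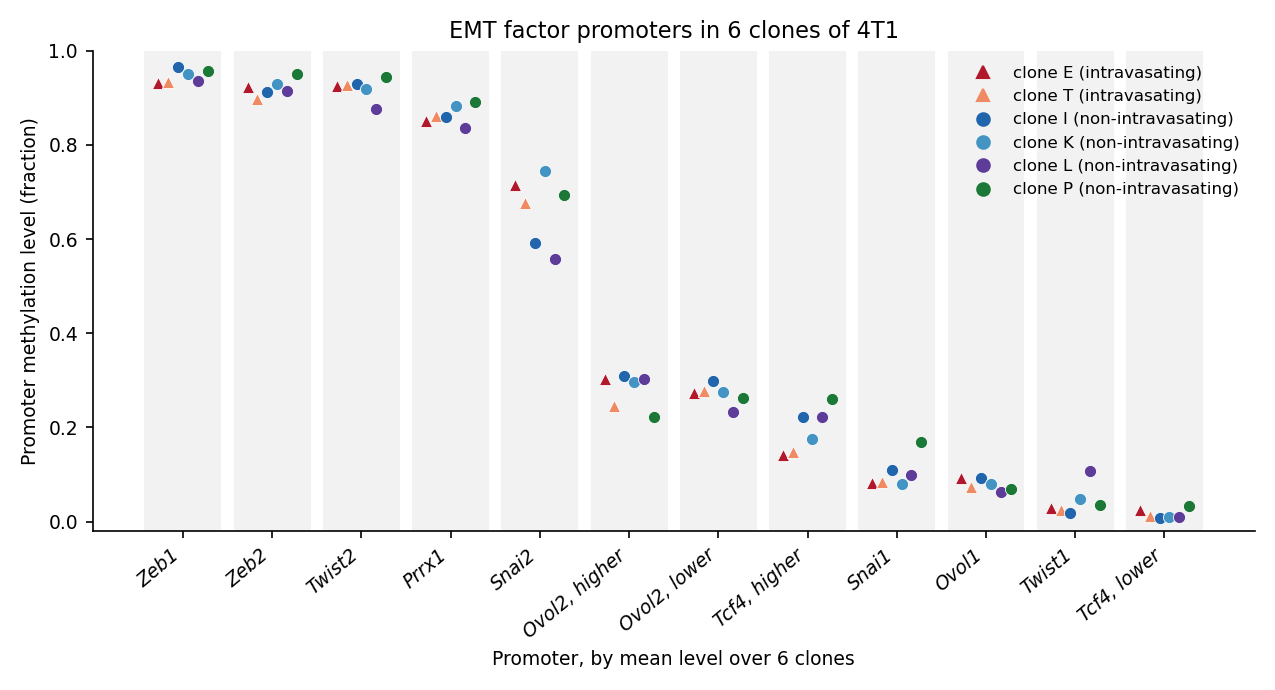
Promoter methylation level (fraction, vertical axis) of the 12 promoters in each of 6 clones, ordered by mean level. Triangles are the intravasating clones E and T and circles the non-intravasating clones I, K, L and P; Zeb1, Zeb2, Twist2 and Prrx1 lie at 0.837 or more in each clone, and Snai2 spreads most, from 0.557 to 0.745.

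The question of the study design, whether intravasating and non-intravasating clones differ at promoters, was then asked of these 12. None was called at a limma adjusted p under 0.05, where 0.00911% of all promoters were called, and each of the 12 had a limma adjusted p of 1.0. At an unadjusted p under 0.05 there was 1 of 12, the higher Tcf4 promoter, against 3.93% of all promoters. That promoter averaged 0.145 ± 0.00352 (SD, n = 2) over clones E and T and 0.220 ± 0.0342 (SD, n = 4) over the other 4. The difference of -0.0752 had a 95% limma interval from -0.143 to -0.00727 and an unadjusted limma p of 0.0337. By exact permutation the two-sided p was 0.0667, the smallest value that the 15 splits of 6 clones allow. Over the alternatives its unadjusted limma p was 0.0177 to 0.181 and its limma adjusted p was 0.646 to 1.0.

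Groups without overlap were found at 2 of the 12 promoters, the higher Tcf4 promoter and Zeb1, both with the intravasating clones below the rest. This was so at 6.89% of all promoters, and at 4.31% the intravasating clones lay above the rest, which 0 of the 12 showed. At Zeb1 the gap between the groups was 0.00174 and the difference of -0.0192 had an interval from -0.0557 to 0.0173. After each clone was centred on its median over all promoters, which ranged from 0.296 in clone L to 0.352 in clone I, neither promoter kept its groups apart, and 5.30% of all promoters had clones E and T below the rest. Centring moves all promoters of a clone by the same amount, whatever their level. Before it the gaps were 0.00174 at Zeb1 and 0.0288 at the higher Tcf4 promoter, both smaller than the spread of these medians. At the higher Tcf4 promoter the groups then overlapped narrowly and through clone K alone. Clone K (level 0.176 before centring, median 0.333) came just below clone T (level 0.147, median 0.303). The difference after centring was -0.0677 at the higher Tcf4 promoter (limma adjusted p = 0.999) and -0.0118 at Zeb1. The mean of clones E and T was the lower one at 7 of the 12 promoters (58.3%) and at 57.5% of all promoters. The median difference was -0.00998 over the 12 and -0.00424 over all.

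The intervals of the remaining promoters bound what 6 clones could show. Snai2 had the widest, from -0.0757 to 0.175 around a difference of 0.0497, and the lower Tcf4 promoter the narrowest, from -0.0154 to 0.0224. Snai1 averaged 0.0838 ± 0.00203 (SD, n = 2) in clones E and T and 0.114 ± 0.0382 (SD, n = 4) in the others, and the interval ran from -0.0826 to 0.0217. Twist1 averaged 0.0264 ± 0.00276 (SD, n = 2) in clones E and T and 0.0526 ± 0.0387 (SD, n = 4) in the others, and the interval ran from -0.0734 to 0.0212. In both genes 1 non-intravasating clone stood highest, P for Snai1 and L for Twist1. For Zeb2, Twist2 and Prrx1 the differences were -0.0164, 0.00820 and -0.0110, and for Ovol1 the difference was 0.00669. Single clones moved several of these values. Without clone T the Zeb2 difference was -0.00412 and without E it was -0.0287, while Prrx1 was at -0.00318 without P and -0.0213 without L. Twist1 was at -0.00787 without clone L, Snai1 at -0.0124 without P and Snai2 at 0.0199 without L. A difference of 0.1 in either direction lay outside the intervals of all but 3 of the promoters, namely Snai2 and the higher Tcf4 and Ovol2 promoters. Levels end at 0 and 1, however, so part of this was fixed in advance. From their non-intravasating means, Zeb1 (0.952), Zeb2 (0.927) and Twist2 (0.917) had no room to be higher by 0.1. Twist1 (0.0526), Ovol1 (0.0763) and the lower Tcf4 promoter (0.0151) had no room to be lower by 0.1.

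**Figure D3:**
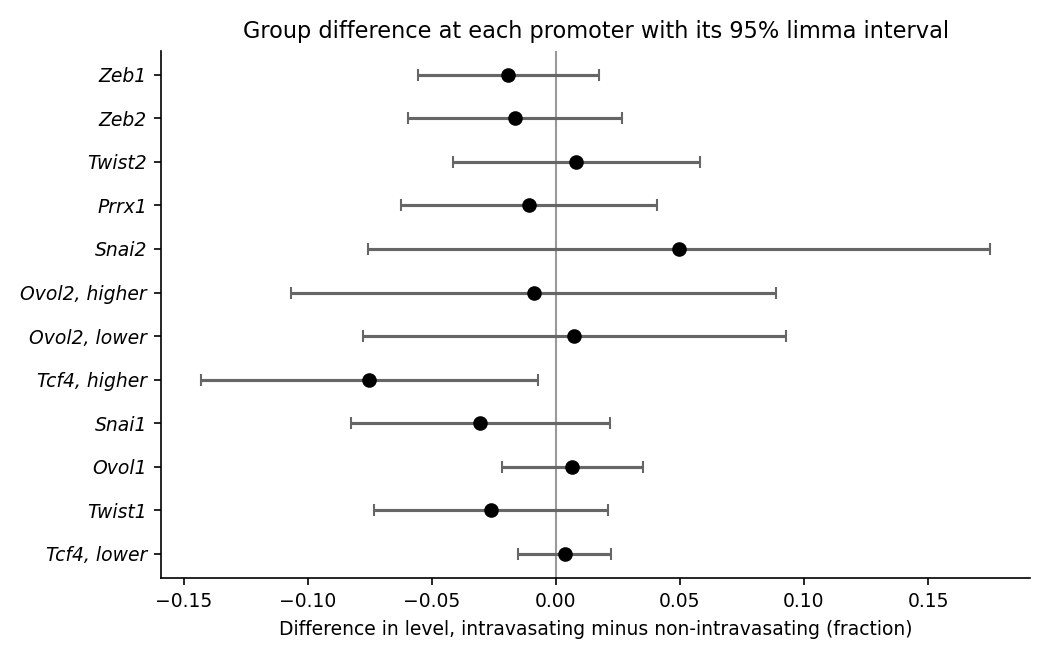
Difference in promoter methylation level, intravasating minus non-intravasating clones (fraction, horizontal axis), for the 12 promoters, with bars for the 95% limma interval. The interval of the higher Tcf4 promoter, from -0.143 to -0.00727, excludes 0 before adjustment over all promoters, and those of the other 11 include 0.

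Clone P had the highest level at 6 of the 12 promoters (Zeb2, Twist2, Prrx1, Snai1 and both Tcf4 promoters), against 19.8% of all promoters. Clone L had the lowest level at 5 of the 12, against 36.0% of all promoters, where it was the clone with the lowest mean level. At Twist1 clone L was instead the highest, at 0.107, with the next clone at 0.0488. Of the promoters under a mean of 0.2, a class that held 38.6% of all promoters, 5 were EMT factors. Their ranges over clones ran from 0.0257 to 0.117, where the median over all promoters of this class was 0.0470. The 4 promoters at 0.8 or more had ranges from 0.0329 to 0.0689, all under the median of 0.0735 for their class.

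**Figure D4:**
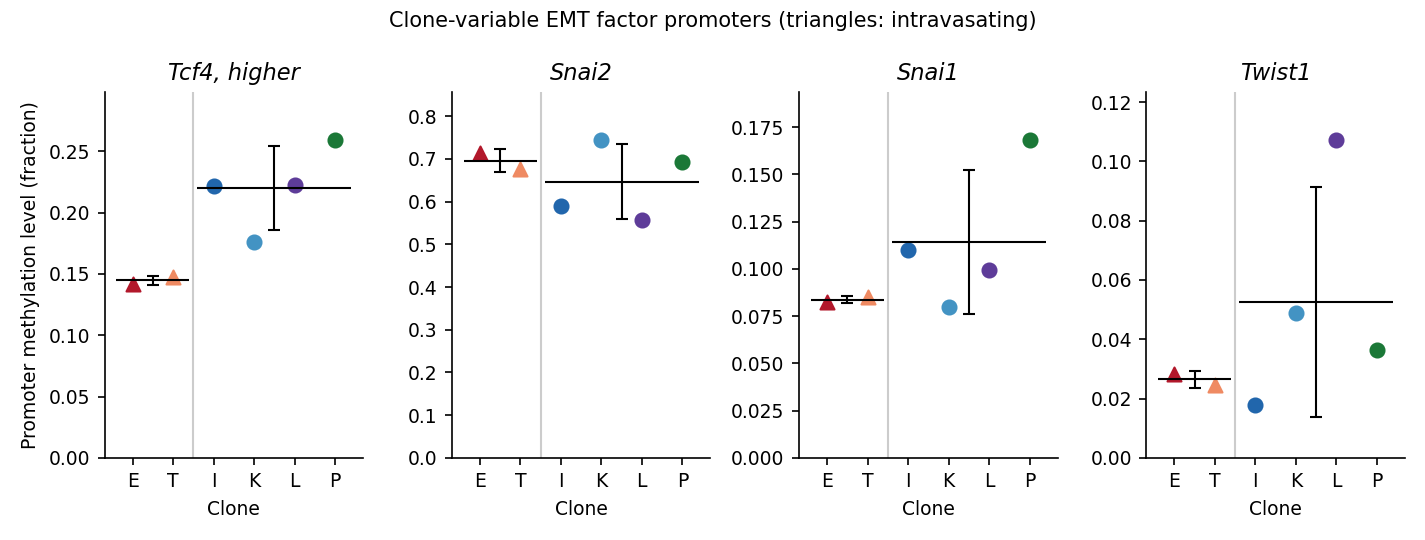
Promoter methylation level (fraction, vertical axes with separate scales) in each clone for the 4 EMT factor promoters with the widest range over clones. Horizontal lines and bars are group means and SD for the 2 intravasating (triangles) and 4 non-intravasating clones (circles); clones E and T lie lowest at the higher Tcf4 promoter, whereas clone P at Snai1 (0.168) and clone L at Twist1 (0.107) stand above the rest.

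The promoters of other genes most like Snai2 and the higher Tcf4 promoter, the 2 with a range of at least 0.1, were found by the mean absolute difference of levels over the 6 clones. For Snai2 they were the lower promoter of 6720468P15Rik at 0.0143, Gm5766 at 0.0179 and 4930481A15Rik at 0.0196, and 402 of 21964 promoters lay within 0.05. For the higher Tcf4 promoter they were Atp5sl at 0.0126, Trappc1 at 0.0136 and the lower promoter of Arhgef10l at 0.0160, with 1356 of 21963 within 0.05. These distances follow the level as much as the pattern between clones.

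Genes around the factors were described from 7 lists, none of whose promoters was called by limma. The median of the 12 EMT factor promoters by clone lay between 0.261 and 0.305, and that of all promoters between 0.296 and 0.352. The mean by clone was instead higher for the 12, at 0.43 to 0.457, than for all promoters, at 0.369 to 0.412. Over all promoters the median of the mean levels over 6 clones was 0.328. Other EMT-linked transcription factors (21 of 23 listed genes measured, 23 promoters) had a median of 0.245, with 11 under 0.2 and 9 at 0.8 or more. Over all promoters 38.6% were under 0.2 and 14.5% at 0.8 or more. At the low end were Foxc1 (0.0119), a forkhead factor, and Id1 (0.0130), an inhibitor of basic helix-loop-helix factors, and at the high end the homeobox genes Gsc (0.924) and Lbx1 (0.931). The forkhead gene Foxq1 had the widest range of the list. It was at 0.135 in clone E and 0.0848 in T against 0.189 in I, 0.172 in K, 0.323 in L and 0.220 in P (limma adjusted p = 1.0). It was the 1 promoter of 23 with clones E and T below the rest, a share no higher than the 6.89% over all promoters. In this list 14 promoters were lower and 9 higher in the intravasating clones.

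Epithelial targets that EMT factors repress had a median of 0.242, and 0 of 25 promoters, of 22 of the 25 listed genes, reached 0.8. The lowest were the desmosome gene Dsp (0.0285) and a promoter of the plakophilin gene Pkp3 (0.0484), and the highest were the other Pkp3 promoter (0.730) and the P-cadherin gene Cdh3 (0.788). Cdh1, the E-cadherin gene and a shared target of the ZEB, SNAIL and TWIST factors, was at 0.106 in clone E and 0.120 in T against 0.0975 in I, 0.0820 in K, 0.0375 in L and 0.0702 in P. Clones E and T lay above the rest at 2 of the 25 promoters, Cdh1 and the tight junction gene Marveld3 (0.334 against 0.305 on average), where 4.31% of all promoters did so. Both were picked out after their values were seen, and both had a limma adjusted p of 1.0. Rab25, a vesicle transport gene, had the widest range, at 0.339 in clone L and 0.540 to 0.588 in the others. Clones E and T had the higher mean at 15 of the 25 promoters and the lower one at 10.

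Mesenchymal targets (24 of 26 listed genes, 25 promoters) had a median of 0.607, with 8 at 0.8 or more. The highest were Lox (0.911), a collagen crosslinking enzyme gene, and the N-cadherin gene Cdh2 (0.932), and the lowest were the integrin gene Itga5 (0.0160) and the intermediate filament gene Vim (0.00643). The collagen gene Col3a1 had the widest range, from 0.413 in clone E to 0.635 in K. In this list 16 were lower and 9 higher in the intravasating clones. Epithelial transcription and splicing factors had a median of 0.270 over 18 promoters of 15 of the 18 listed genes, from Gata3 (0.00531), a luminal factor, and Foxa1 (0.0267) to the higher promoter of Trp63 (0.862) and Cdx2 (0.915), with Spdef widest at 0.537 in clone T to 0.719 in P. There 11 were lower and 7 higher.

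MicroRNA genes that oppose the factors had a median of 0.630 over 12 promoters, and 6 were lower and 6 higher in the intravasating clones. Mir200c, whose product represses Zeb1 and Zeb2, had the widest range of any listed promoter, at 0.0409 in clone L, 0.286 in I, 0.522 in E, 0.520 in T, 0.665 in K and 0.683 in P. Its neighbour Mir141 followed the same order of low clones, at 0.0423 in L and 0.264 in I. Clone L, the lowest at Mir200c, was at 0.936 at Zeb1 and 0.914 at Zeb2. The lowest of the list was Mir30a (0.123) and the highest were Mir34b (0.860) and Mir34c (0.879). At 4 of the 12, Mir200a, Mir200b, Mir429 and Mir34a, the intravasating clones lay below the rest, against 6.89% of all promoters; these were picked out after their values were seen, and the first 3 are neighbours in 1 cluster.

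Inducing signals had a median of 0.124 over 27 promoters (26 of 28 listed genes), with 15 lower and 12 higher. They ran from Smad7 (0.00434), an inhibitor of TGF-beta signalling, and Hmga2 (0.00454) to the TGF-beta coreceptor gene Tgfbr3 (0.734) and Wnt5a (0.806). Bmp7, a BMP ligand gene, had the widest range, at 0.432 in clone L and 0.379 in T against 0.0304 to 0.154 in the others. Corepressors and regulators of factor stability had the lowest median, 0.0833 over 28 promoters (22 of 24 listed genes), with 17 lower and 11 higher. They ran from the kinase gene Gsk3b (0.00450) and 1 promoter of Ctbp2 (0.00581), a corepressor of the ZEB factors, to a promoter of the ubiquitin ligase gene Fbxw7 (0.905) and another of Ctbp2 (0.924). The kinase gene Pak1 had the widest range, from 0.143 in clone E to 0.405 in T. In the remaining lists clones E and T lay below the rest at 2 of 18 epithelial factor and 2 of 25 mesenchymal promoters. They also did so at 2 of 27 signal and 4 of 28 corepressor promoters, against 6.89% of all promoters. Above the rest they lay at 1, 0, 0 and 1 promoters of these lists in the same order, against 4.31% of all promoters.

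**Figure D5:**
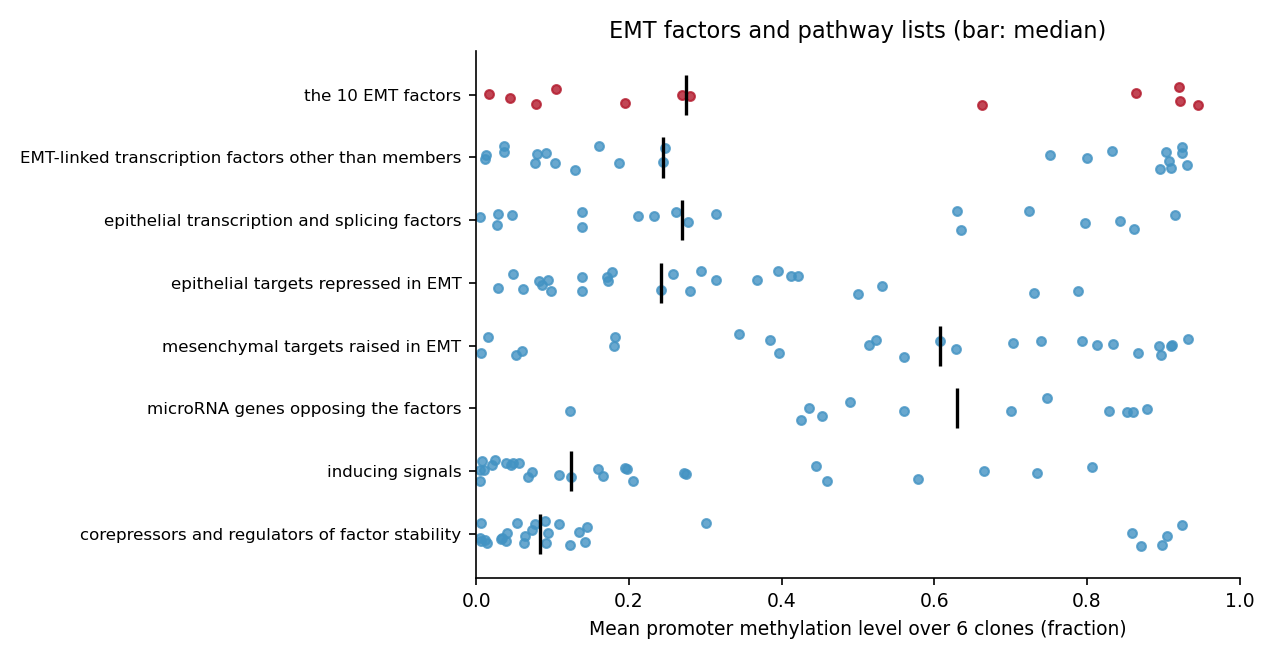
Mean promoter methylation level over 6 clones (fraction, horizontal axis) of the 12 EMT factor promoters (red) and of the promoters in 7 lists of related genes (blue), 1 point per promoter with random vertical offset; bars are medians. Corepressors and inducing signals lie mostly low (medians 0.0833 and 0.124), and mesenchymal targets and opposing microRNA genes are higher (0.607 and 0.630).

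The label of a mammary epithelial tumour line was set against marker promoters. The 6 epithelial marker promoters were at 0.0856 to 0.295, with a median of 0.215. Medians were 0.646 for 8 fibroblast, 0.699 for 6 leukocyte, 0.789 for 4 endothelial and 0.413 for 3 erythroid marker promoters. Of the listed genes, 4 of 5 endothelial and 3 of 4 erythroid ones were measured. Single promoters ran from 0.0597 to 0.894 for fibroblast and from 0.241 to 0.79 for leukocyte markers. For endothelial markers they ran from 0.696 to 0.86, and for erythroid markers from 0.184 to 0.905. The lowest fibroblast (Pdgfra), leukocyte (Cd14) and erythroid (Hbb-b1) promoters thus lay below the highest epithelial one. None of the marker promoters was called between the groups by limma, and their part in the levels above was not tested.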

How the data were processed

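Genomic DNA of 6 clonal 4T1 lines was bisulfite converted and sequenced, per the labels' protocols. The deposited promoter table gives a methylation fraction per promoter and clone, with no counts, coverage or coordinates. Per the submitters' processing notes, bedtools, DESeq and mm10 were used, with no role stated. The sources used here do not name the aligner, the promoter boundaries or how rounds were combined. Identical rows of a gene (145 of 22110) were counted once. The table of hypomethylated regions was not used, because its coordinates on chromosome 7 reach 152.5 Mb, past the last gene of GRCm38.p6 at 145.3 Mb.

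Levels were compared over all 21965 promoters in R 4.3.3 by limma 3.58.1, using eBayes with trend, and p-values were adjusted by the Benjamini-Hochberg method. The p-values measure the spread between clones; the labels do not say that the rounds were separate cultures. The step was tested on simulated levels for the size of an added shift. What size of difference it could call with 2 clones against 4 is not given here. Alternatives were an arcsine scale, a logit scale after bounding at 0.01 and 0.99, eBayes without trend, centring on clone medians, a range of at least 0.1, all rows kept, an adjusted p under 0.10, each clone left out, and a shorter CpG window. Promoters of a gene are called lower and higher by mean level. Chromosomes and windows of 300 bases are from RefSeq, matched by symbol. Python 3.11.15, pandas 2.3.3, NumPy 2.4.6, SciPy 1.17.1 and matplotlib 3.10.9 were used.

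The genes and lists were chosen with earlier results of these data known. In each of the 7 pathway lists the text names any promoter called or with the groups apart by at least 0.1, the 2 lowest, the 2 highest and the one with the widest range; the 3 nearest promoters are named for EMT factors with a range of at least 0.1.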

Additional observations from a re-analysis of the deposited data

Results flagged for a closer look

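Among the 4 non-intravasating clones, a single clone stood far from the other three (Dixon's ratio above its 95% critical value) at 9 of the 72 promoters checked. Over all promoters with any spread among these clones the share was 6.56% (1439 of 21950). Chance flags about 1 in 20 groups of independent values, a rate that cannot be set against the 9, since some of the 72 were named for their lowest, highest or most variable levels and all share the same 4 clones. Among the 12 EMT factor promoters there were 2. Clone P was low at the higher Ovol2 promoter, at 0.223, and high at the lower Tcf4 promoter, at 0.0324. Clone L was low at Cdh2 (0.904), Cdx2 (0.884), Lbx1 (0.904), Lox (0.855) and the leukocyte marker Ptprc (0.721), and it was the lowest of the 6 clones at 36.0% of all promoters. Clone K was high at Col1a2 (0.908) and Itga5 (0.0310). At Ptprc clone T was lower than clone L, at 0.708, and at Col1a2 clone E was at 0.902. Clone P at Snai1 and clone L at Twist1 did not reach the critical value.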

How the results depend on the processing

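No EMT factor promoter was called by limma under any of the 12 alternative fits or at an adjusted p under 0.10; their adjusted p was 0.646 to 1.0, and at most 1 of the 12 had an unadjusted p under 0.05. The filter on range kept 2 of the 12. Over all promoters the 2 calls became 0 without the mean trend (943 with an unadjusted p under 0.05), 5 after centring and 25 of 9625 with a range of at least 0.1, and 0 to 4 with a clone left out (0 without clone L, with 1691 at an unadjusted p under 0.05; 4 without clone E). EMT factor promoters with the groups apart numbered 0 of 12 after centring, where 5.30% of all promoters had clones E and T below and 4.44% above the rest. With a clone left out they numbered 2 (without L) to 3 (without E, T, I, K or P), 1 of them above without T or P; over all promoters the share below was then 8.78% to 27.1% and the share above 5.51% to 20.6%. The sign held under each fit for 7 of the 12. With a clone left out their differences were -0.0245 to -0.0151 at Zeb1, -0.0287 to -0.00412 at Zeb2, -0.0213 to -0.00318 at Prrx1, 0.0199 to 0.0825 at Snai2, -0.0898 to -0.0619 at the higher Tcf4 promoter, -0.0420 to -0.0124 at Snai1 and -0.0377 to -0.00787 at Twist1. It turned with 1 clone left out for Twist2 without clone L (-0.00551 to 0.0175 over the 6 clones left out), the lower Ovol2 promoter without L (-0.00435 to 0.0181), the higher Ovol2 promoter without T (-0.0380 to 0.0201), Ovol1 without E (-0.00369 to 0.0171) and the lower Tcf4 promoter without E (-0.00248 to 0.00944). With clone E or T left out, the lone intravasating clone is assumed to vary like the others. In the 200 bases before the start, CpG per 100 bases left its interval for Prrx1 (0.50 against 2.0 in the whole window). No coverage minimum could be applied, since the depth is unknown. No paired analysis was possible because the table holds no separate columns for the rounds.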
